A study of Mus musculus with 16 samples.

Results

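The genes described here encode the major histocompatibility complex (MHC) of the mouse and the proteins that supply its molecules with peptide. They were chosen by name: every probe on the array whose gene symbol began with H2- or was B2m, Cd74, Ciita, Tap1, Tap2, Tapbp, Psmb8, Psmb9, Psmb10, Nlrc5, Erap1 or Cd1d1. This gave 61 probes of the 25697 on the Illumina MouseRef-8 array, for 47 of the 16593 genes it names. Epididymal white adipose tissue (eWAT, the fat pad beside the epididymis) and liver were taken from mice labelled wild-type or Fgf1 null at 24 weeks of age. Fgf1 encodes a fibroblast growth factor, and for 16 weeks the diet had been chow or high in fat (HFD). Each combination of tissue, genotype and diet was a group, and the 8 groups had 2 arrays each, 16 in all. The labels call the 2 arrays of a group technical replicates, so each group held 1 RNA sample, and they do not say whether that RNA came from 1 mouse or a pool. A test between 2 groups therefore compared 2 RNA samples against the spread between repeat arrays, and it said nothing about the spread between mice. The strain and the extent of the Fgf1 deletion were not given in the sources used here.

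MHC class I molecules consist of a heavy chain and the light chain beta-2-microglobulin, are carried by nearly all nucleated cells, and display peptides made inside the cell. Those peptides are cut by the proteasome, which carries special catalytic subunits in inflamed tissue, and are pumped into the endoplasmic reticulum by the transporter TAP. MHC class II molecules are pairs of an alpha and a beta chain, are made mainly by macrophages, dendritic cells and B cells, and display peptides from material taken up from outside; the invariant chain CD74 guards their groove until H2-DM exchanges its remnant for a peptide. The coactivator CIITA switches class II genes on and NLRC5 does so for class I genes, both through proteins (RFX, CREB and NF-Y) bound to a shared promoter module whose parts are called the S, X and Y boxes.

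The promoter stretches below show that module in 4 class II genes, of which H2-Aa, H2-Eb1 and H2-DMb1 changed in the liver and H2-Eb2 was called in no comparison within a tissue. They also show the corresponding stretch in 3 class I heavy chains and in B2m, of which none was called in liver between diets or genotypes. Among the letters listed next, H2-Q10 had a match to TTTCNNTTC alone. Capitals mark matches, on the strand shown, to ATTGG (the core of the Y box), TGATTGG (a longer form of it), TGACG (the core of a CREB site), TGATGNTG (a form of the X2 part of the X box) or TTTCNNTTC (the core of an interferon response element).
H2-Aa, chr17:34287850-34287921, minus strand: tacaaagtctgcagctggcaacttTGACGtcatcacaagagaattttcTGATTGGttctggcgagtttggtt
H2-Eb1, chr17:34305758-34305829, plus strand: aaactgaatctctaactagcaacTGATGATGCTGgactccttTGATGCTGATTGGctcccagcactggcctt
H2-DMb1, chr17:34153080-34153151, plus strand: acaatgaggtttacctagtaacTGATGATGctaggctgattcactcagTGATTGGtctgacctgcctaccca
H2-Eb2, chr17:34325525-34325596, plus strand: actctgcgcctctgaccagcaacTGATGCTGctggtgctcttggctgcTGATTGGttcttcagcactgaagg
H2-K1, chr17:34000338-34000437, minus strand: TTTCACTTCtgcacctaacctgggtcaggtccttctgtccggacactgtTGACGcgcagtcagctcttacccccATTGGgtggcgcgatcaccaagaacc
H2-D1, chr17:35262944-35263043, plus strand: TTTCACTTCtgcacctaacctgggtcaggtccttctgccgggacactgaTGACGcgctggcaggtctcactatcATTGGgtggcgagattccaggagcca
H2-Q10, chr17:35469934-35470033, plus strand: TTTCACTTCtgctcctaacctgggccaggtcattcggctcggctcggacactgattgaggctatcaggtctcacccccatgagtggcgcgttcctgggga
B2m, chr2:122147587-122147658, plus strand: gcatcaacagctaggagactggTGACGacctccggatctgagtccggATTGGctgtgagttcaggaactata

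The sequences are from RefSeq on mouse build GRCm38.p6, which held a promoter of 300 bases for 34 of the 47 genes; Cd1d1, Cd74, Ciita, H2-Ab1, H2-Bl, H2-Ea, H2-Q1, H2-Q5, H2-Q8, H2-T10, H2-T24, Nlrc5 and Tap2 had none. Counted from the transcription start, the first letter of TGATTGG lay at position −50 in H2-Aa, −61 in H2-Eb1, −63 in H2-DMb1 and −102 in H2-Eb2. Every TGATTGG contains an ATTGG, and the TGATGNTG matches of H2-Eb1 overlap each other or its TGATTGG. Searched on both strands, TGATTGG was in the promoters of 21 of the 34 genes and in 7.82% of all 32851 mouse promoters of that length. ATTGG was in 29 of the 34 against 37.4% of all, TGACG in 13 against 20.8%, TGATGNTG in 8 against 4.55%, and TTTCNNTTC in 6 against 7.52%. The motifs were chosen after the letters had been seen, and a match is a description of the sequence only. H2-K1 and H2-D1 share an almost identical stretch, as class I heavy chains do along their transcripts, so a probe to 1 of them may also have bound transcripts of another, and their values are uncertain as gene-specific levels.

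Levels below are log2 of the background-corrected, quantile-normalised intensity, scaled separately in each tissue unless stated, and arrays are given in the order array 1 and array 2. Testing in a tissue required detection (a detection p under 0.05) by both arrays of some group there, and 15839 eWAT probes and 11580 liver probes met this. A difference was called where limma's moderated test, adjusted over all tested probes by the Benjamini-Hochberg method, gave a p under 0.05 and the difference was at least 2-fold. Detected probes per array numbered 13570 to 15399 in eWAT and 10626 to 11650 in liver, and the arrays of a pair correlated at 0.992 to 0.996 across all probes. The genotype labels were checked on Fgf1: probe ILMN_2701233 was called lower in the Fgf1 null on HFD in liver (log2 difference −1.43) and eWAT (−1.50), but was not called on chow, where it differed by −0.95 in liver and by 0.67 in eWAT. The second Fgf1 probe, ILMN_2721110, was called higher by 1.16 in the eWAT labelled Fgf1 null on chow and was not called lower between genotypes in either tissue; which exons the probes lie in was not given. Hepatocyte transcripts dominated all liver arrays, with summed marker intensities of 282399 to 312810. The eWAT samples carried transcripts of other tissues, and how these came into the samples was not given: epididymis and testis markers summed to 130485 to 135212 in wild-type chow against 1251 to 1282 in wild-type HFD, and pancreas acinar markers to 319010 to 323649 in Fgf1 null HFD and 60249 to 62003 in wild-type HFD against 225 to 227 in both chow groups. The Fgf1 null eWAT samples carried epididymis transcripts too: Defb22 was at 13.94 and 14.18 on chow and 13.75 and 13.59 on HFD. In wild-type it was at 15.40 and 15.64 on chow and 6.86 and 6.81 on HFD. Wfdc13 had the same order of groups, whereas Prm1 was at 15.705 and 15.607 in wild-type chow and 9.73 to 10.04 elsewhere. Hepatocyte markers in eWAT ran from 7549 in an Fgf1 null chow array to 136514 in a wild-type HFD array.

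Of the 61 probes, 41 (32 genes) passed the detection filter in eWAT, 39 (30 genes) in liver, 37 in both and 43 (34 genes) in at least 1 tissue. On all 8 arrays of their tissue, 36 of the 41 and 33 of the 39 were detected. The 24 class I heavy chain genes had 29 probes, of which 13 passed in eWAT and 14 in liver; the 5 class II chain genes had 8, of which 7 passed in each tissue; the 6 class II loading genes had 7, of which 7 passed in eWAT and 4 in liver. Peptide supply (Psmb8, Psmb9, Psmb10, Tap1, Tap2, Tapbp and Erap1) had 10 probes, of which 8 passed in each tissue. B2m, Cd1d1, Ciita and Nlrc5 passed in both, as did H2-Ke6, an enzyme gene that carries the H2 name because it lies in the complex. The genes that passed nowhere were Erap1, which trims peptides for class I, the class II chain H2-Ea, and the class I heavy chains H2-M1, H2-M9, H2-M11, H2-M10.2 to H2-M10.6, H2-Q5, H2-T3 and H2-T24. Of the 3 B2m probes 1 was detected on 0 of the arrays, although the others were among the brightest probes of the set, at up to 47301.6 intensity units before normalisation. In all, 3 of the tested probes passed through a single group and so had to be higher there: a second H2-K1 probe (ILMN_2634603) in Fgf1 null chow eWAT, H2-Q2 in wild-type chow eWAT and Ciita in Fgf1 null HFD liver.

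In liver on HFD, 10 of the 13 calls between genotypes were in class II chains and their loading genes. H2-Aa, H2-Ab1 and H2-Eb1, together with Cd74, H2-DMa and H2-DMb1, were higher in the Fgf1 null sample than in the wild-type one, by 3.38-fold for H2-DMb1 and up to 7.74-fold for H2-Ab1. In all, 13 of the 39 probes were called, 12 of them higher (8 genes, Ciita included, which had passed the filter through the Fgf1 null HFD sample alone) and 1 lower, against 4.56% of all liver probes called, 2.94% higher and 1.62% lower. The class II chain probes had a median log2 difference of 2.85 and the loading factors of 2.33. The medians were −0.13 for class I heavy chains, 0.21 for B2m, −0.07 for peptide supply and −0.01 over all probes.

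H2-Aa, the alpha chain of the I-A molecule, was at 9.996 and 9.81 in Fgf1 null HFD, at 7.23 and 7.31 in wild-type HFD, at 7.71 and 7.91 in Fgf1 null chow, and at 7.72 and 8.01 in wild-type chow. The Fgf1 null HFD arrays stood alone above the other 6, which lay between 7.23 and 8.01. Between genotypes on HFD the difference was 2.63 ± 0.15 (log2, standard error), or 6.20-fold, with a limma adjusted p of 6.94e-05. H2-Ab1, the beta chain of I-A, has 4 probes, and the brightest (ILMN_1226525) was at 11.86 and 11.93 in Fgf1 null HFD, 8.86 and 9.02 in wild-type HFD, 9.65 and 9.66 in Fgf1 null chow, and 10.16 and 9.95 in wild-type chow. Its difference on HFD was 2.95 ± 0.13 (limma adjusted p 3.57e-05), and the other 3 probes gave 2.63 to 2.91. The Fgf1 null HFD sample was highest and the wild-type HFD sample lowest of the 4, with no overlap between those groups. H2-Eb1, the beta chain of the I-E molecule, was at 10.95 and 10.87 in Fgf1 null HFD, 7.92 and 8.19 in wild-type HFD, 8.61 and 8.50 in Fgf1 null chow, and 8.94 and 8.98 in wild-type chow, a difference on HFD of 2.85 ± 0.14 (7.22-fold, limma adjusted p 4.3e-05). The order of the groups was that of H2-Ab1. H2-Eb2, a little-expressed relative of H2-Eb1, had levels of 4.82 to 5.73 over the 8 arrays, near the limit of detection, and differed on HFD by 0.13 ± 0.18 (limma adjusted p 0.693).

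The genes that load class II molecules behaved as the chains did. Cd74 was at 11.82 and 11.89 in Fgf1 null HFD, 9.13 and 9.30 in wild-type HFD, 9.70 and 9.84 in Fgf1 null chow, and 9.82 and 9.95 in wild-type chow; on HFD it differed by 2.64 ± 0.13 (6.24-fold, limma adjusted p 4.48e-05), and by 2.54 with its other probe. H2-DMa, the alpha chain of the peptide exchange factor, was at 8.50 and 8.42 against 6.32 and 6.38 on HFD, and at 6.51 to 7.13 on chow, a difference on HFD of 2.11 ± 0.20 (limma adjusted p 0.000615). H2-DMb1, its beta chain, was at 8.395 and 8.34 against 6.59 and 6.63, and at 6.43 to 7.09 on chow, with a difference on HFD of 1.76 ± 0.12 (limma adjusted p 0.000152). For all 3 genes the 2 arrays of Fgf1 null HFD lay above the other 6. H2-DMb2 and H2-Ob, which encodes a chain of the modulator H2-DO, were detected on 0 of the 8 liver arrays and H2-Oa did not pass the filter there.

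**Figure D1:**
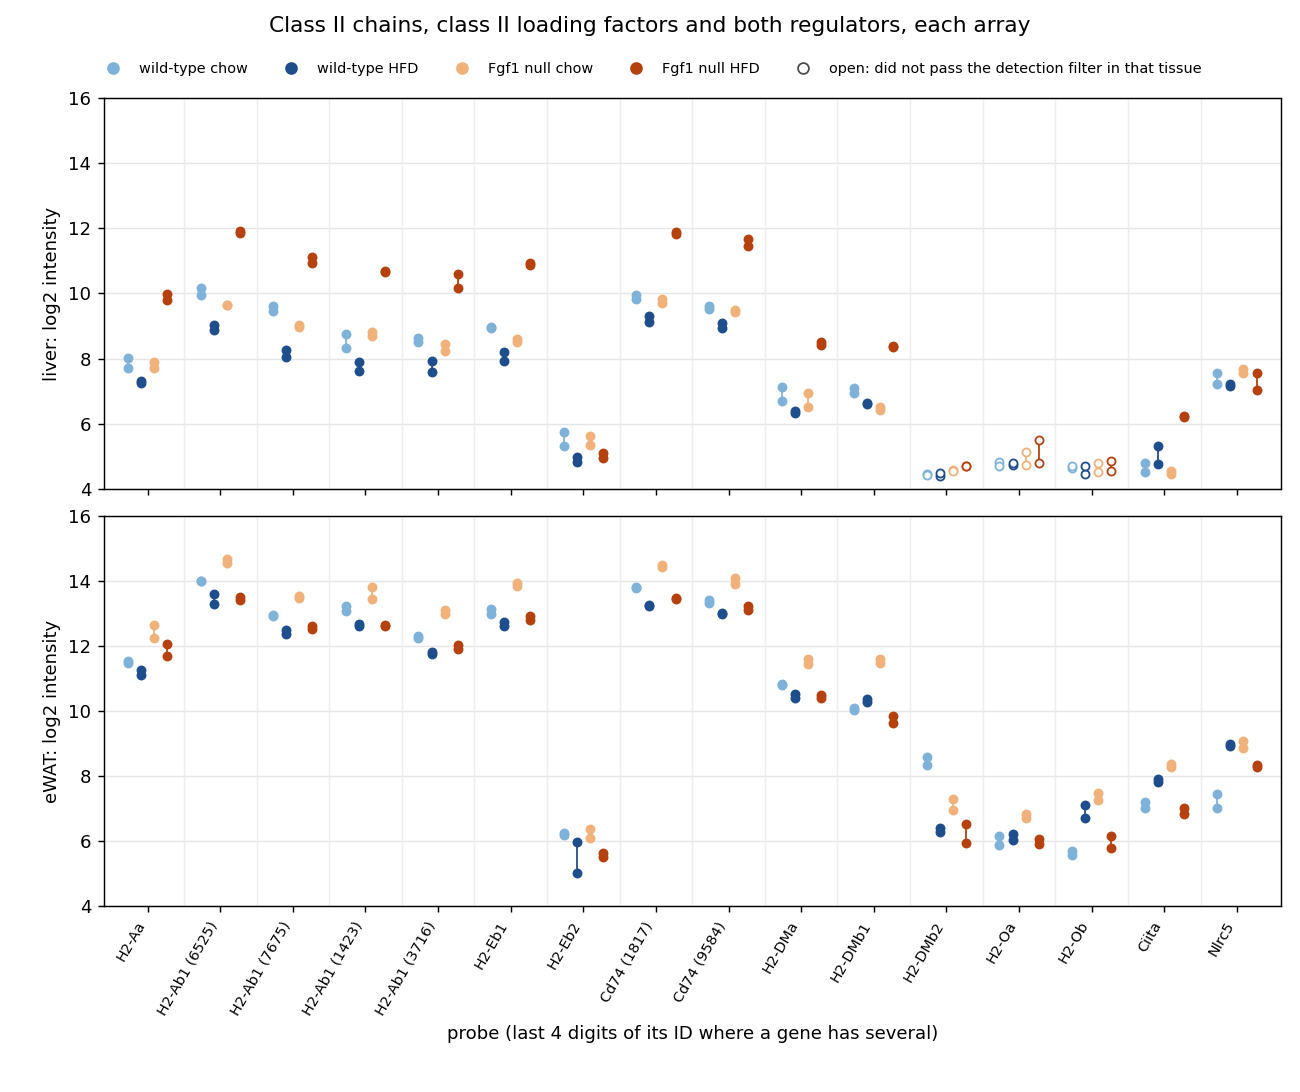
Level (log2 intensity) of each class II chain, loading and regulator probe on every array, liver above and eWAT below, coloured by genotype and diet, with open symbols for probes that did not pass the detection filter in that tissue. In liver the Fgf1 null HFD arrays of H2-Ab1, at 11.86 and 11.93, lie above the other 6, whereas in eWAT the Fgf1 null chow arrays, at 14.68 and 14.55, are the highest.

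Of the regulators, Ciita was called and Nlrc5 was not. Ciita was at 6.21 and 6.22 in Fgf1 null HFD liver and detected there, and at 4.46 to 5.31 on the other 6 arrays; the difference from wild-type HFD was 1.19 ± 0.20. Since Ciita was tested because of that group, this value is a description and its call adds nothing to the class II result. Leaving out either Fgf1 null HFD array ended that call (1.19 each time, limma adjusted p 0.0579 without array 1 and 0.0584 without array 2), as did leaving out array 1 of wild-type HFD (0.91), omitting background correction (0.49) and using the authors' values (0.89). Nlrc5 was at 7.55 and 7.05 in Fgf1 null HFD and at 7.22 and 7.15 in wild-type HFD, so the groups overlapped, and it differed by 0.11 ± 0.20 (limma adjusted p 0.766).

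Among class I genes on HFD, a single heavy chain was called in each direction. H2-M2, an unusual class I gene of the M region, was at 7.16 and 7.06 in Fgf1 null HFD and at 4.99 to 5.77 on the other 6 arrays, higher than wild-type HFD by 1.58 ± 0.24 (limma adjusted p 0.00602). H2-Bl, annotated as a class I blastocyst gene, was at 5.39 and 5.27 against 6.52 and 6.62 in wild-type HFD, a fall of 1.24 ± 0.17 on the log2 scale (limma adjusted p 0.00416), and it was above 6 in the wild-type HFD sample alone. Without background correction both fell short of 2-fold, at 0.78 for H2-M2 and −0.54 for H2-Bl, and without array 1 of Fgf1 null HFD the H2-M2 call was lost (limma adjusted p 0.0527). The brightest heavy chain probe, of H2-T23 (the mouse molecule Qa-1), lay between 12.08 and 12.39 on all 8 arrays and differed by −0.11 ± 0.12. B2m was at 14.65 and 14.60 against 14.33 and 14.29 with probe ILMN_1216746, a difference of 0.31 ± 0.13 (limma adjusted p 0.153). The immunoproteasome subunits gave −0.06 and −0.07 (Psmb10, 2 probes), −0.11 (Psmb8) and 0.14 (Psmb9), and the transporter subunits 0.79 (Tap1, limma adjusted p 0.0919) and 0.18 (Tap2); none of these was called.

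**Figure D2:**
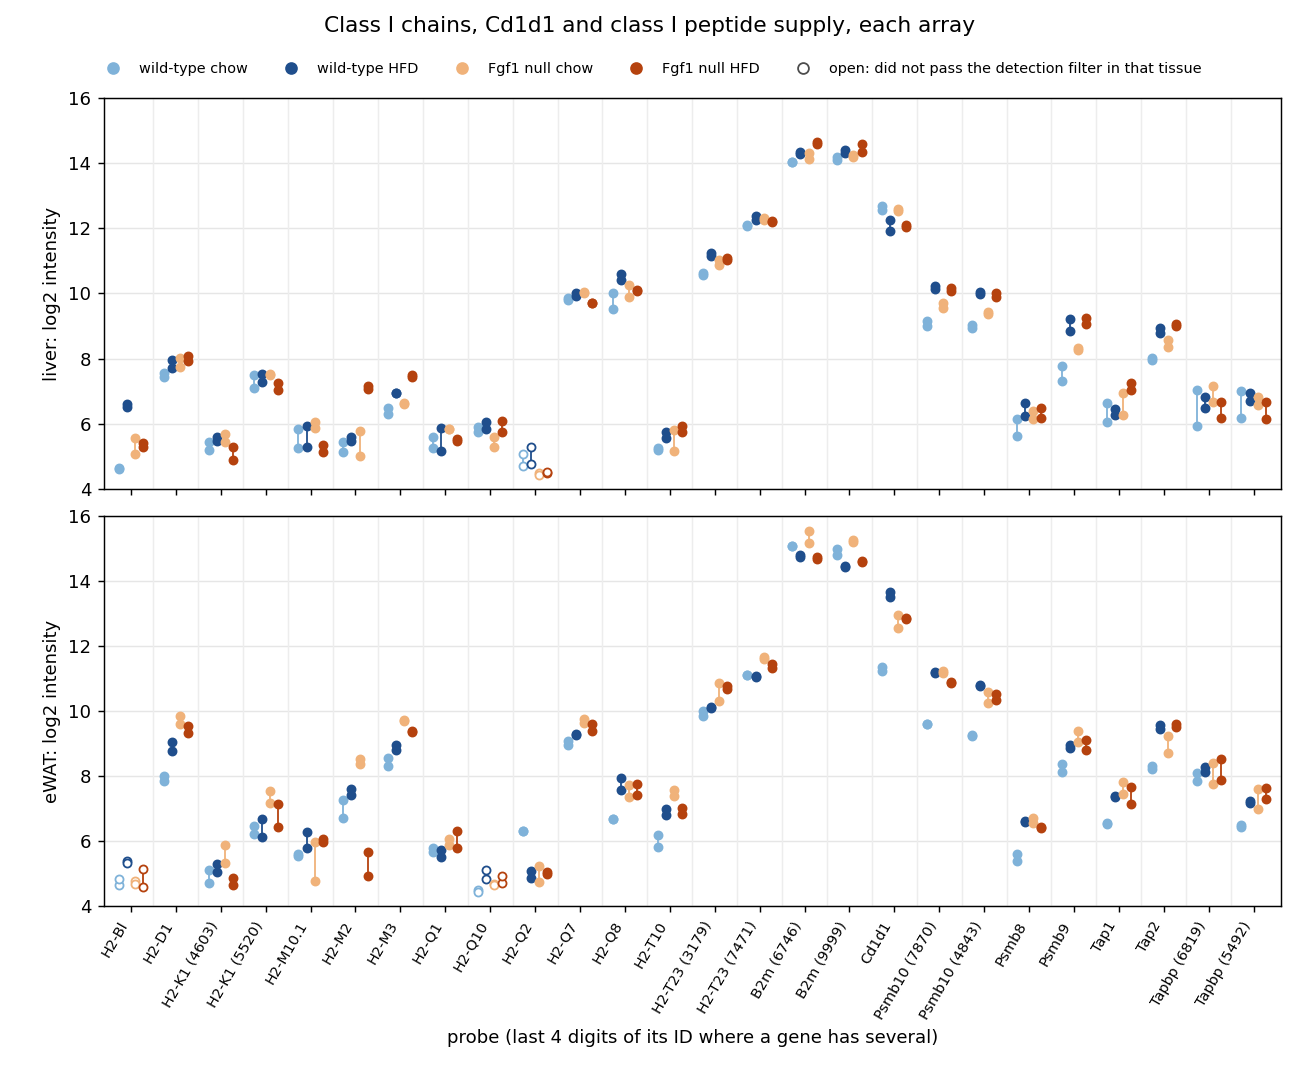
Level (log2 intensity) of each class I heavy chain, B2m, Cd1d1 and peptide supply probe on every array, liver above and eWAT below, coloured by genotype and diet, with open symbols for probes that did not pass the detection filter in that tissue. In liver H2-T23 stays within 12.08 to 12.39 on all arrays, and in eWAT Cd1d1 runs from 11.23 in wild-type chow to 13.66 in wild-type HFD.

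Other genes of the pathway were read beside these. Across all liver probes, 2.94% were called higher and 1.62% lower between genotypes on HFD. Of 15 tested partners in antigen processing (proteases, chaperones and the like), limma called 0 between genotypes on HFD in liver, with 4 at an unadjusted p under 0.05. Of 13 tested genes of the interferon gamma response, 2 were called higher, the GTPase Gbp2 by 1.42 and the chemokine Cxcl9 by 1.17, and Ifng itself did not pass the detection filter. Of 4 tested costimulatory genes, 1 was called higher, Cd274 (the ligand PD-L1) by 1.11. In bulk tissue, more cells that carry class II cannot be told apart from more class II RNA per cell. Of 9 tested macrophage markers, 1 was called higher (lysozyme Lyz2, by 2.35) and 3 lower (Cd163 by 3.89, Timd4 by 1.40 and Vsig4 by 1.03). The summed intensity of the macrophage markers was 4796 to 5068 in Fgf1 null HFD against 4262 to 4681 in wild-type HFD. It was 2960 to 3152 in Fgf1 null chow and 2600 to 2607 in wild-type chow. Lyz2 was the brightest of them in Fgf1 null HFD, at 10.85 and 10.79 against 8.27 and 8.66 in wild-type HFD, so the sums depend on it. In Fgf1 null HFD, 8 of 10 dendritic cell markers, 6 of 8 B cell markers and 7 of 10 T and NK cell markers were not detected on either array. Their sums there were 283 to 328, 260 to 274 and 294 to 329, against 283 to 287, 226 to 245 and 262 to 278 in wild-type HFD. Of 6 tested hepatocyte markers limma called 0, also with 0 at an unadjusted p under 0.05. These markers lay at 15.29 to 15.99 on every liver array, near the top of the intensity scale. The 0 calls therefore do not show that hepatocyte content was equal. Among adipocyte markers 2 of 4 tested were higher, Cidec by 5.07 and Pparg by 1.97. The adipocyte markers Plin1, Fabp4 and Slc2a4 were detected on 0 of the liver arrays. Adipoq did not pass the filter and was at 4.64 and 4.86, against 6.38 and 5.02 in wild-type HFD. The part of these cells in the class II difference was not tested.

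In Fgf1 null liver, HFD against chow gave the same class II genes, measured against another sample: 12 of the 39 probes were called higher and 0 lower, against 8.01% of all probes called, 5.1% higher and 2.9% lower. This comparison shares the Fgf1 null HFD sample with the one between genotypes, so the values are set side by side and are not a second, independent result. H2-Eb1 rose by 2.35 ± 0.14 (5.10-fold, limma adjusted p 5.21e-05), H2-Aa by 2.10, the H2-Ab1 probes by 1.93 to 2.24, Cd74 by 2.09 and 2.10, H2-DMb1 by 1.90 and H2-DMa by 1.74. Ciita, tested because of the HFD sample, was not detected on chow and was at least 1.97-fold higher on HFD, and H2-M2 rose by 1.73 ± 0.24 (limma adjusted p 0.00239). The median was 2.05 for class II chains, 0.02 for class I heavy chains and 0.51 for peptide supply. The costimulatory genes Cd86, Cd274 and Cd83 were called higher as well, by 1.14, 1.57 and 1.43, as were Lyz2 (by 2.24) and Adgre1 (by 1.99) among macrophage markers, while Cd163 was called lower (−3.03).

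In wild-type liver, HFD came with lower H2-Ab1 and higher Psmb10 and Psmb9 RNA than chow. Of the 39 probes, 4 were called higher and 2 lower, against 5.35% of all liver probes, 3.01% higher and 2.35% lower; with arrays scaled by their median it was 6 higher and 1 lower. The called increases were in peptide supply and 1 class I gene. Psmb10, an immunoproteasome subunit, went from 9.14 and 8.99 on chow to 10.14 and 10.23 on HFD, a rise of 1.12 ± 0.13 (limma adjusted p 0.00135; 1.03 with its other probe). With all 16 arrays normalised together both Psmb10 probes fell just short of 2-fold, at 0.99 and 0.93, and without array 2 of wild-type chow the second did, at 0.98. Psmb9, another such subunit, went from 7.77 and 7.32 to 9.21 and 8.84, a rise of 1.48 ± 0.19 (limma adjusted p 0.0025). The other immunoproteasome subunit, Psmb8, was at 6.15 and 5.63 on chow and 6.63 and 6.23 on HFD, a difference of 0.54 ± 0.23 (limma adjusted p 0.139) that was not called. H2-Bl was not detected on chow and rose at least 2.49-fold, but gave 0.86 without background correction, short of 2-fold. The 2 called decreases were both probes of H2-Ab1, which fell by 1.12 ± 0.13 (limma adjusted p 0.00157) and by 1.39 ± 0.14 (0.000777); the first was lost under median scaling (−0.81) and with the authors' values (−0.88). All 7 class II chain probes and all 4 loading probes had values below 0, with medians of −0.82 and −0.55, while all 14 heavy chain probes had values above 0, with a median of 0.24. Fgf1 null liver on HFD had Psmb10 and Psmb9 at 10.16 and 10.09 and at 9.07 and 9.26, which overlapped the wild-type HFD levels. Of the macrophage markers, 4 of 9 were called higher in this comparison and 0 lower. The pancreas gene Cela2a was called higher too, by 2.23, and its level differed between the 2 wild-type HFD arrays (8.37 and 6.67). Array 1 of that group was also above array 2 for the other acinar markers, among them Clps (6.95 against 4.55) and Amy2a5 (7.97 against 6.20), and for Adipoq (6.38 against 5.02). The cause of this difference between repeat arrays was not tested.

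Between genotypes on chow, liver gave 0 called probes of the complex by limma, against 1.87% of all probes, while 11 of the 39 had an unadjusted p under 0.05. The medians were −0.24 for class II chains, 0.25 for heavy chains and 0.42 for peptide supply. The test of whether the effect of diet differed between genotypes called 12 probes higher and 1 lower in liver, against 7.41% of all probes, 3.85% higher and 3.56% lower. They were the class II, Cd74, H2-DM, Ciita and H2-M2 probes named above, whose diet effect was larger in the Fgf1 null, and H2-Bl, whose diet effect was smaller. The Ciita value is again a description, and both it and H2-M2 were lost without single arrays.

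In eWAT, the brightest H2-Ab1 probe lay at 13.30 to 14.68 in all samples, and 16 of 41 probes were called between genotypes on chow but 1 on HFD. In Fgf1 null chow eWAT 37 of the 41 probes had a value above that in wild-type chow: 14 were called higher and 2 lower, against 25.8% of all eWAT probes called, 13.3% higher and 12.5% lower. Without background correction the split was 7 higher and 0 lower, since the dimmer genes fell short of 2-fold. The calls lay in class I heavy chains (5 higher), peptide supply (4), Cd1d1, H2-DMb1, H2-Ob and both regulators. The median was 0.69 for heavy chains, 1.03 for peptide supply, 0.62 for class II chains and 0.69 for loading genes, with 0.09 over all probes. The wild-type chow sample carried the most epididymis and testis transcripts, with Prm1 at 15.705 and 15.607. Both Fgf1 null samples also carried Defb22, at 13.94 and 14.18 on chow. With 1 RNA sample per group, the comparisons against wild-type chow could not be repeated without it.

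H2-D1, a classical class I heavy chain, was at 9.86 and 9.62 in Fgf1 null chow, 7.85 and 7.999 in wild-type chow, 8.76 and 9.05 in wild-type HFD, and 9.55 and 9.32 in Fgf1 null HFD. The wild-type chow arrays were the lowest and the chow genotypes did not overlap, with a difference of 1.82 ± 0.16 (3.52-fold, limma adjusted p 4.21e-05). The heavy chains H2-M2, H2-T10 and H2-M3, which presents formylated peptides, were higher by 1.46, 1.46 and 1.28, and 1 of 2 H2-K1 probes by 1.00 (limma adjusted p 0.0156), a call lost without array 1 of Fgf1 null chow (0.83, limma adjusted p 0.0968) or array 2 of wild-type chow (0.87). H2-Q2 was at 6.33 and 6.31 in wild-type chow and at 4.74 to 5.25 elsewhere, and was called lower, having been tested because of the wild-type chow sample. Psmb10 was at 11.18 and 11.24 in Fgf1 null chow against 9.615 and 9.6003, a difference of 1.61 ± 0.11 (limma adjusted p 1.05e-05). Psmb8 and Tap1 were higher by 1.12 and 1.09, the latter short of 2-fold without array 2 of Fgf1 null chow (0.91). B2m, at 15.52 and 15.17 against 15.07 and 15.07, differed by 0.28 and 0.33 with its 2 probes and was not called.

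Cd1d1, which presents lipids to NKT cells, was at 12.96 and 12.57 in Fgf1 null chow and 11.36 and 11.23 in wild-type chow, a difference of 1.47. Nlrc5 was at 9.08 and 8.88 against 7.44 and 7.04 (1.74 higher) and Ciita at 8.38 and 8.29 against 7.20 and 7.01 (1.23 higher). H2-DMb1 was at 11.61 and 11.49 against 10.095 and 10.05, a difference of 1.48 ± 0.13 (limma adjusted p 4.27e-05), and H2-Ob at 7.26 and 7.48 against 5.58 and 5.71, a difference of 1.72. H2-DMb2 went the other way, at 7.31 and 6.97 against 8.58 and 8.36, lower by 1.33. The DM beta genes thus differed in sign; they encode near-identical chains, and how specific their probes are was not tested. None of the chains H2-Aa, H2-Ab1 and H2-Eb1 reached 2-fold: their differences were 0.94, 0.47 to 0.77 and 0.83, each with a limma adjusted p of 0.0315 or less, and Cd74 gave 0.66 and 0.64.

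In wild-type eWAT, HFD against chow called 8 of the 41 probes higher and 2 lower, against 31.9% of all probes, 16.3% higher and 15.6% lower. It shares the wild-type chow sample with the comparison above. Cd1d1 had the largest difference, from 11.36 and 11.23 on chow to 13.51 and 13.66 on HFD, a rise of 2.29 ± 0.16 (4.89-fold, limma adjusted p 6.67e-06). Nlrc5 rose by 1.71 ± 0.16, to 8.92 and 8.98, with a limma adjusted p of 4.04e-05. In peptide supply Psmb10 rose by 1.58 and 1.53, Tap2, a subunit of TAP, by 1.24 and Psmb8 by 1.09, while Tap1 gave 0.82. H2-Ob rose by 1.28 ± 0.19 (limma adjusted p 0.000563) and the heavy chain H2-Q8 by 1.08. Without array 2 of wild-type HFD H2-Q8 fell short of 2-fold (0.89), as did Psmb8 without array 1 of wild-type chow (0.98). Without background correction H2-Q8 (0.66), Psmb8 (0.45) and H2-Ob (0.57) were not called, nor with the authors' values (0.61, 0.44 and 0.56). H2-DMb2 fell from 8.58 and 8.36 to 6.29 and 6.41, by 2.12 ± 0.21 on the log2 scale, and H2-Q2, not detected on HFD, was at least 1.90-fold lower. Since H2-Q2 was tested because of the wild-type chow sample alone, its value is a description. All 7 class II chain probes lay below 0 (median −0.50) and all 8 peptide supply probes above 0 (median 0.95), with 0.12 over all probes. Hepatocyte transcripts differed too: Ttr was at 14.69 and 15.01 on HFD against 7.69 and 7.84 on chow, whereas Cyp2e1 was at 15.05 and 15.17 against 15.09 and 15.11. H2-Q8, itself higher in liver than in eWAT, was at 7.58 and 7.96 on HFD. In Fgf1 null chow it was at 7.72 and 7.36, with Ttr at 6.86 and 7.23. The part of liver transcripts in the H2-Q8 rise was not tested.

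In Fgf1 null eWAT, HFD against chow called 0 probes higher and 8 lower, against 9.72% of all probes called, 4.14% higher and 5.57% lower. H2-M2 went from 8.37 and 8.52 to 5.68 and 4.93, a log2 difference of −3.14 ± 0.27 (8.84-fold, limma adjusted p 0.000135). H2-DMb1 fell from 11.61 and 11.49 to 9.85 and 9.62, by 1.82, Ciita from 8.38 and 8.29 to 7.01 and 6.84, by 1.41, and H2-Ob by 1.38. The chains fell with them: H2-Ab1 by 1.15 and 1.07 with 2 of its 4 probes, H2-Eb1 by 1.03 and H2-DMa by 1.06. Medians were −0.996 for class II chains and −0.9995 for loading genes, −0.25 for heavy chains and −0.10 for peptide supply. H2-Eb1 and H2-DMa were at the edge of 2-fold: without array 2 of either Fgf1 null group H2-Eb1 gave −0.99 or −0.97, and without array 1 of Fgf1 null chow H2-DMa gave −0.98. Without background correction Ciita (−0.94) and H2-Ob (−0.70) also fell short. Psmb10 gave −0.33 with its brighter probe, Psmb8 −0.21, Cd1d1 0.08 and H2-D1 −0.30, none of which was called.

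On HFD, limma called 1 of the 41 probes between the eWAT genotypes, against 10.8% of all probes (5.12% higher and 5.73% lower), and 13 had an unadjusted p under 0.05. It was H2-M2, at 5.68 and 4.93 in Fgf1 null against 7.41 and 7.62 in wild-type, a log2 difference of −2.21 ± 0.27 (4.63-fold, limma adjusted p 0.000598). Leaving out either Fgf1 null HFD array or array 2 of wild-type HFD made that count 2. H2-M2 was therefore lower in Fgf1 null HFD eWAT and higher in Fgf1 null HFD liver than in the wild-type tissue on the same diet. Ciita, at 7.01 and 6.84 against 7.91 and 7.83, gave −0.95 ± 0.13 (limma adjusted p 0.00126), short of 2-fold. Whether the effect of diet differed between genotypes was called for 16 probes, 2 positive and 14 negative, against 37.9% of all probes (18.2% positive and 19.6% negative).

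Transcripts of immune cells in eWAT differed between these groups. Among macrophage markers, Lyz2 was the brightest on every eWAT array. Macrophage markers summed to 41754 to 45217 in Fgf1 null chow, 17425 to 19184 in wild-type HFD, 18166 to 18693 in Fgf1 null HFD and 5497 to 5544 in wild-type chow. B cell markers summed to 818 to 1073, 744 to 785, 373 to 408 and 303 to 335 in the same order, and T and NK cell markers to 2387 to 2642, 978 to 1027, 558 to 696 and 632 to 634. Most of that sum in Fgf1 null chow was Il7r, at 10.96 and 10.70 on the log2 scale, while Cd3d, a chain of the T cell receptor complex, was at 6.77 and 7.07 there against 7.69 and 7.83 in wild-type chow. The sums of dendritic cell markers did not follow that order: they were 1385 to 1396, 1235 to 1377, 1709 to 1916 and 566 to 576, highest in Fgf1 null HFD. Clec10a was the brightest of them there, at 10.06 and 10.35 against 9.36 and 9.55 in Fgf1 null chow. Itgax (6.89 and 6.32) and Batf3 (7.97 and 7.75) were highest in Fgf1 null chow. Zbtb46 was highest in Fgf1 null HFD (7.06 and 6.97), and Cd209a and Siglech overlapped between the HFD groups. In the same order of groups, adipocyte markers summed to 96400 to 102157, 119859 to 125905, 87050 to 90116 and 39158 to 39552, and endothelial markers to 3618 to 4254, 3975 to 4194, 5344 to 6018 and 1873 to 1948. Across all eWAT probes, 16.3% were called higher in wild-type HFD and 13.3% in Fgf1 null chow, each against wild-type chow. Against wild-type chow, 6 of 8 adipocyte markers were called higher both in wild-type HFD (median 1.95) and in Fgf1 null chow (median 1.24), as were 4 of 4 and 3 of 4 endothelial markers (medians 1.11 and 1.12). All 7 acinar markers were called higher in wild-type HFD than in wild-type chow, with a median of 7.94. Between the chow genotypes 6 of 10 macrophage markers were called higher and 0 lower, with Adgre1 higher by 3.996 and Lyz2 by 3.40, as were 4 of 6 B cell, 3 of 5 T and NK cell and 3 of 6 dendritic cell markers. Of the 4 costimulatory genes tested, all 4 were higher than in wild-type chow both in wild-type HFD and in Fgf1 null chow, and Cd83 was higher by 3.26 in Fgf1 null chow. Of 16 tested partners in antigen processing, 5 were called higher in Fgf1 null chow, led by the protease Ctss (cathepsin S), which trims the invariant chain, by 3.89, and Marchf1, a ligase that removes class II from the surface, by 2.35. In Fgf1 null eWAT, HFD against chow called 5 of the 16 lower, against 5.57% of all probes, and Ctss fell by 2.29. Of 13 interferon gamma response genes, 7 were higher in wild-type HFD and 5 in Fgf1 null chow against wild-type chow, with Gbp3 higher by 2.14 and 2.40. The part of any of these cell types, or of the other tissues, in the MHC differences was not tested.

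**Figure D3:**
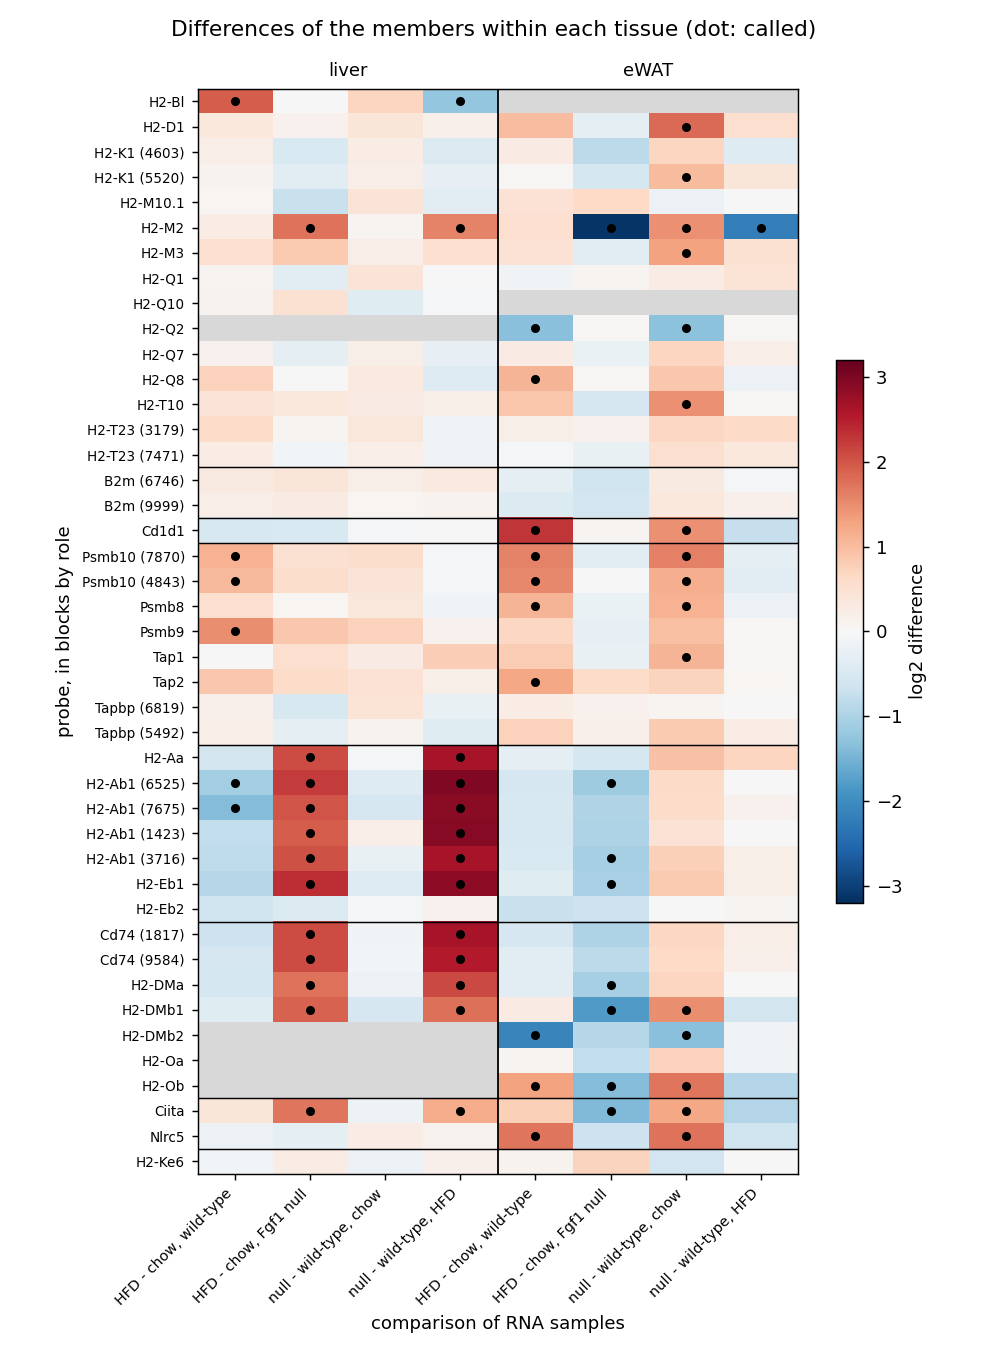
Log2 difference of each MHC and antigen presentation probe (rows, grouped by role) in the comparisons of diet and genotype (columns) in liver and eWAT; a dot marks a call, and grey a probe that did not pass the detection filter. Between genotypes in HFD liver the class II rows reach 2.95 for H2-Ab1, with H2-Eb2 at 0.13 as the exception among the chains, and the peptide supply rows lie above 0 in the eWAT columns measured against wild-type chow.

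Liver and eWAT were compared over their 4 RNA samples each, paired by genotype and diet, on arrays scaled together; here RNA samples were the replicates, and limma called 20 of 43 probes, 8 higher in liver and 12 lower, against 28.5% of all probes (13.5% higher and 14.9% lower). The heavy chains H2-Q8, H2-Q10, H2-Q7, H2-K1 and H2-T23 were called higher in liver, with 7 of the 15 heavy chain probes, and 6 of 7 class II chain probes and 6 of 7 loading probes were called higher in eWAT. Of the called probes, H2-Q10 had passed the filter through liver alone, and H2-DMb2 and H2-Ob through eWAT alone. Each had to be higher in that tissue, so their values are descriptions although the counts include them. Among the heavy chains not called were H2-T10 (−0.01), H2-Q2 (−0.22), H2-Q1 (0.86) and H2-M3 (−0.95), and the class II chain not called was H2-Eb2 (0.29 ± 0.20). H2-Q8 was at 10.102 to 11.02 on the 8 liver arrays (median 10.597) and 6.18 to 7.43 on the 8 eWAT arrays (median 6.97). The tissues did not overlap, and the liver was higher by 3.74 ± 0.20 (log2, standard error; 13.4-fold, limma adjusted p 0.000513). H2-Q10, a heavy chain known for its secreted form made by hepatocytes, was detected on 8 of 8 liver arrays and 0 of 8 eWAT arrays, and was at least 2.97-fold higher in liver (limma adjusted p 0.00155), a call that did not hold without background correction (0.80). H2-K1 was higher by 1.88 and 1.13 with its 2 probes, H2-T23 by 1.51 and 1.42, H2-Q7 by 1.51, and Psmb8 by 1.22; under median scaling Psmb8 (0.63) and the weaker H2-K1 probe (0.90) fell short of 2-fold.

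The class II chains H2-Eb1, H2-Ab1 and H2-Aa were lower in liver, with log2 differences of −3.25, −3.30 to −2.63 and −2.57. Those of Cd74 were −2.96 and −2.82, of H2-DMa −2.53 and of H2-DMb1 −2.11. The H2-DMb1 call was lost without 3 of the 4 conditions in turn (limma adjusted p 0.0787 to 0.101). The brightest H2-Ab1 probe was at 9.50 to 12.2 in liver and at 13.1 to 14.6 in eWAT, with no overlap. The gap of that probe depended on the condition: in the Fgf1 null it was −4.32 on chow and −1.17 on HFD, the condition with the raised liver level and the smallest gap for all 4 H2-Ab1 probes, H2-Aa and H2-Eb1. H2-DMb2 and H2-Ob, tested because of eWAT and not detected on any liver array, were at least 1.65-fold and 1.15-fold lower in liver. Without Fgf1 null chow neither was called. H2-Ob was not called either without wild-type HFD (limma adjusted p 0.0871) or without Fgf1 null HFD (0.0513). B2m differed by −0.53 ± 0.25 and −0.33 ± 0.24 and was not called. Ciita gave −1.58 ± 0.62 (limma adjusted p 0.0995), with 0.69 in Fgf1 null HFD against the negative values of the other 3 conditions. Within single conditions, arrays as replicates, the calls numbered 25, 26, 24 and 18 in wild-type chow, Fgf1 null chow, wild-type HFD and Fgf1 null HFD, against 43.4%, 38.7%, 31.7% and 30.5% of all probes. In that order 13, 11, 10 and 11 were higher in liver, against 20.9%, 17.2%, 14.7% and 13.7% of all probes, and 12, 15, 14 and 7 were lower, against 22.5%, 21.6%, 17% and 16.8%. Scaling arrays by their median turned the split of calls in wild-type chow from 13 higher and 12 lower into 9 and 15, in Fgf1 null chow from 11 and 15 into 6 and 19, and in wild-type HFD from 10 and 14 into 7 and 16. Without background correction the splits were 6 and 11 in wild-type chow, 5 and 13 in Fgf1 null chow and 6 and 6 in Fgf1 null HFD.

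**Figure D4:**
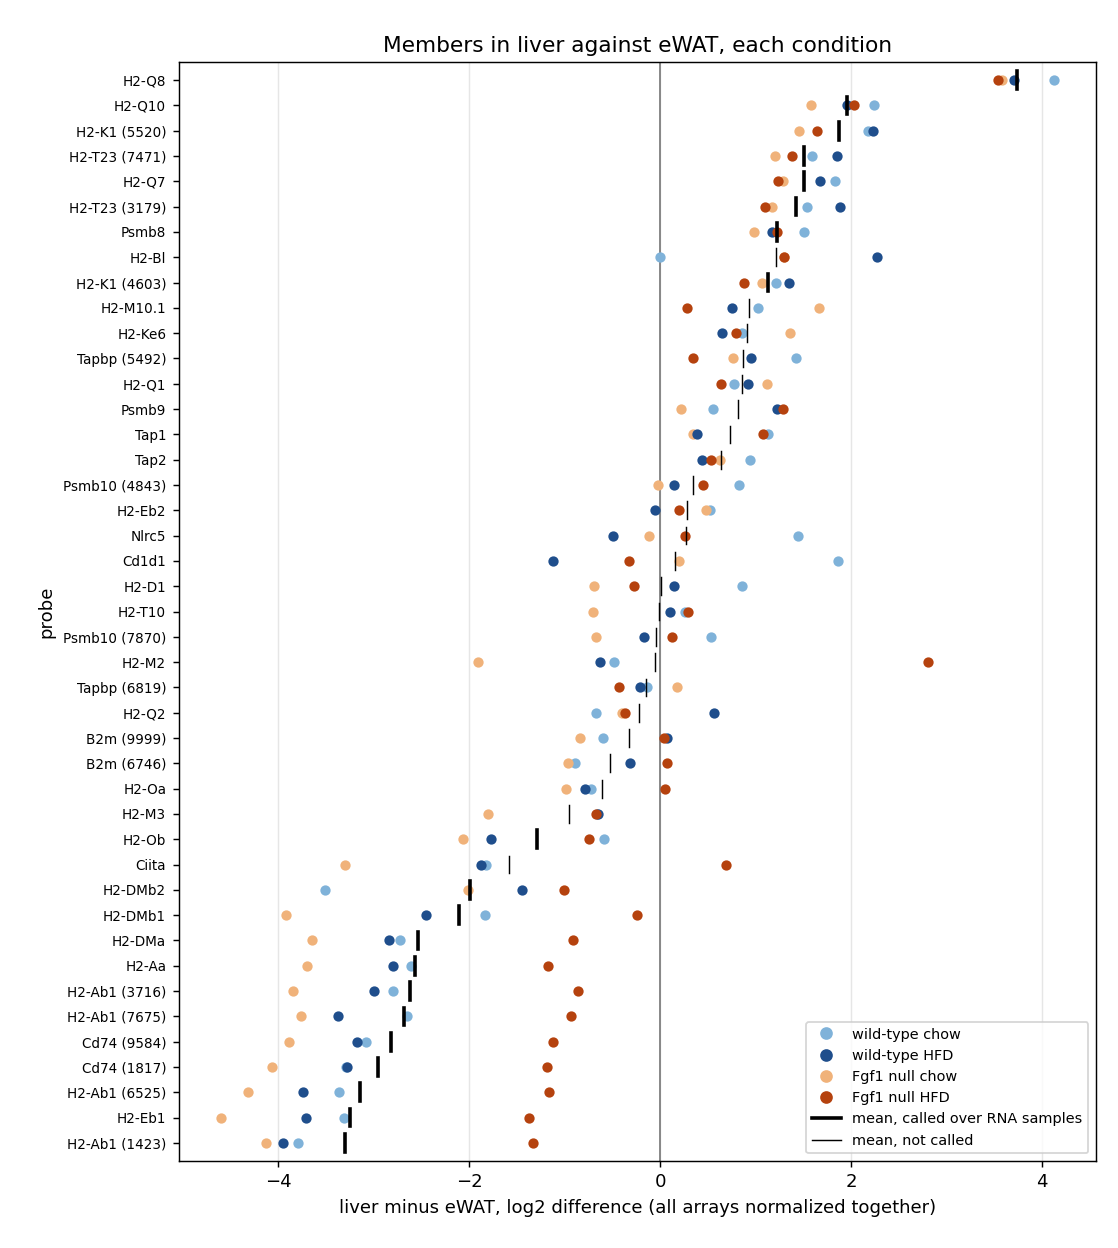
Liver minus eWAT log2 difference of each probe; points are the 4 combinations of genotype and diet, bars their mean over RNA samples, and thick bars mark calls. H2-Q8 lies furthest to the liver side, at a mean of 3.74, and the probes of H2-Aa, H2-Ab1 and H2-Eb1 lie on the eWAT side, with the Fgf1 null HFD points nearest to 0, while H2-Eb2 has a mean of 0.29.

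With RNA samples as replicates within a tissue, an additive fit of diet and genotype over 4 samples had 1 residual degree of freedom. By limma it called 0 probes of the complex and 0 of all probes in either tissue, against 7 probes of the complex with an unadjusted p under 0.05 for diet in liver and 0 for genotype in liver and for both terms in eWAT. The error term of this fit was the diet by genotype interaction, called above for 7.41% of all liver probes and 37.9% of all eWAT probes. An effect of diet that differed between genotypes thus counted as error, so the 0 calls do not show that differences were absent. The diet and genotype differences above therefore hold between the RNA samples measured, and the spread between mice was not measured.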

How the data were processed

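Total RNA of 8 groups (eWAT or liver, wild-type or Fgf1 null, chow or HFD) was read on 2 arrays each, technical replicates per the labels. The authors deposited non-normalized probe intensities with a detection p-value per probe and array, and their own normalized intensity values; GenomeStudio was used, per the submitters' processing notes, which give no version. All columns were mapped to samples, and 0 were left unmapped.

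Non-normalized intensities were background-corrected, quantile-normalised and logged with neqc (offset 16, negative controls inferred from detection p-values), in each tissue alone and, between tissues, over all 16 arrays. Models were fitted with limma 3.58.1 in R 4.3.3 with the data.table package, version 1.17.8, over all tested probes, each tissue in a model of its own with 4 groups, which left 4 residual degrees of freedom. Probe symbols came from GEO's platform annotation of 2016; 23978 probes had 1 symbol and 1719 none, and all 61 probes described matched RefSeq by Entrez ID. The precision is limited by the 2 arrays per group: the median SD between paired arrays was 0.156 (log2) in eWAT and 0.179 in liver for the tested MHC probes.

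Values were given in full for probes called in at least 1 comparison of a tissue and for the brightest probe of each role, and for pathway and marker lists up to 4 or 3 called genes. The members and lists were chosen with earlier results of these data known. Bounds ("at least") set the detected group's mean against, per array of the undetected group, the higher of its lowest detected signal and the probe's own. Fits were tested on simulated data. The alternatives were no background correction, the authors' normalized intensities, median scaling, joint normalisation, other filters and fold minimums, a replicate block and leaving out each array; 2 more, genes in place of probes and members detected on every array, were added after seeing the data. Same-numbered arrays of different groups did not deviate together (correlation −0.039 to 0.050 in eWAT and −0.073 to 0.024 in liver), so the numbers paired nothing.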

Additional observations from a re-analysis of the deposited data

Results flagged for a closer look

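For some probes in each tissue, the effect of HFD differed between the genotypes by the interaction term. This term was Fgf1 null minus wild-type in the HFD minus chow difference (log2, called at a limma adjusted p under 0.05 and at least 2-fold). In liver the effect of HFD was more positive in the Fgf1 null for the class II chains H2-Aa (2.69), H2-Ab1 (3.36, 3.42, 2.70 and 2.87 with its 4 probes) and H2-Eb1 (3.25), for Cd74 (2.76 and 2.64), H2-DMa (2.29), H2-DMb1 (2.30) and Ciita (1.34), and for the heavy chain H2-M2 (1.49). H2-Bl alone was more negative there (−1.92). The liver calls numbered 13 of 39 probes, against 7.41% of all probes. The H2-M2 and Ciita results were lost when single arrays were left out, with limma adjusted p of 0.0522 to 0.113 and 0.0535 to 0.081, and Ciita had passed the detection filter through Fgf1 null HFD alone, so its value is a description.

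In eWAT 16 of 41 probes (39%) were called, close to the 37.9% of all probes (18.2% positive and 19.6% negative). The interaction was negative for the heavy chains H2-D1 (−1.28), H2-K1 (−1.11 with probe ILMN_2634603), H2-M2 (−3.67), H2-Q8 (−1.03) and H2-T10 (−1.43), for Cd1d1 (−2.20), for Psmb10 (−1.91 and −1.52), Psmb8 (−1.30) and Tap1 (−1.06), for H2-DMb1 (−2.07) and H2-Ob (−2.66), and for Ciita (−2.18) and Nlrc5 (−2.37). It was positive for H2-Q2 (1.36) and H2-DMb2 (1.21). That H2-K1 probe had passed the filter through Fgf1 null chow alone and H2-Q2 through wild-type chow alone, and a high value in that group gives the interaction this sign, so their values are descriptions; the other H2-K1 probe gave −0.61 and was not called. Leaving out single arrays ended the call of H2-K1 (4 arrays, −1.01 to −0.82), H2-Q8 (3 arrays, −0.87 to −0.85), Tap1 (array 2 of either Fgf1 null group, −0.88 and −0.80) and H2-DMb2 (array 2 of Fgf1 null HFD, 0.92). All eWAT values rest in part on the wild-type chow sample, which carried the most epididymis and testis transcripts. The Fgf1 null samples in them also carried epididymis transcripts. The interaction of H2-M2 and Ciita was thus negative in eWAT and positive in liver; whether it differed between tissues was not tested.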

How the results depend on the processing

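The liver calls between genotypes on HFD numbered 10 to 13 under no background correction, the authors' values, median scaling and each left-out array, and the class II chain, Cd74, H2-DMa and H2-DMb1 calls were kept under each of these. Of 115 called probe results none reversed; 38 fell short of a call without background correction, 34 with the authors' values, 3 with median scaling and 2 of 115 with no filter on dim probes, and 13 of 95 with all arrays normalised together. Omitting background correction compresses folds of dim probes. Counts of called MHC probes that moved by over 1.5 times were, without background correction, 6 (from 10) for diet in wild-type eWAT, 7 (from 16) for genotype in chow eWAT, 9 (from 16) for the eWAT interaction and 3 (from 6) for diet in wild-type liver; with the authors' values 5, 7, 8 and 3. Under median scaling they were 25 for genotype in chow eWAT, 2 (from 1) for genotype in HFD eWAT and 26 for the eWAT interaction. With a minimum of 1.5-fold they were 16, 20 (from 8, diet in Fgf1 null eWAT), 32, 8 and, for diet in wild-type liver, 15. Of members detected on every array 0 were called for genotype in HFD eWAT, since H2-M2 was left out.

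Median log2 differences of the MHC probes that moved by more than the spread between arrays were, for diet in Fgf1 null eWAT, −0.32 without background correction and −0.30 with the authors' values (from −0.56), and for genotype in chow eWAT 0.58 with the authors' values (from 0.75). Median scaling, which shifted the median of all probes to 0.29 (from 0.12) for diet in wild-type eWAT, 0.26 (from 0.09) for genotype in chow eWAT and 0.26 (from 0.00) for diet in wild-type liver, gave MHC medians of 0.43, 1.09 and 0.36 there, −1.13 for the eWAT and −0.24 for the liver interaction. Between tissues it gave −0.041 (wild-type chow), −0.38 (wild-type HFD) and −0.0086 (Fgf1 null HFD); with probes detected on every array the median was 0.55 in wild-type chow and −0.12 in Fgf1 null chow. The cause of these moves was not tested. Leaving out single arrays gave 1 to 2 calls for genotype in HFD eWAT and a median of −0.58 to −0.21 between tissues in Fgf1 null chow; the calls over RNA samples numbered 17 to 22 with 1 condition left out. Where an array was left out, the lone array of its group was assumed to vary like the other groups. With the replicate number as a block, which pairs nothing here, the count for diet in wild-type eWAT stayed 10 and no call changed.

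The arrays repeat 1 RNA sample per group, so no value carries the spread between mice, and dissection, pooling and genotype cannot be told apart. Probes near the detection limit (Ciita, H2-M2, H2-Bl and H2-Q2) had folds set in part by the background correction, and levels of different probes are not comparable.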
